A study of Mus musculus with 7 samples.

Results

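Genes of macrophages, monocytes, granulocytes and dendritic cells were examined in RNA from CD4+ cells that had been sorted from mouse spleen. They were chosen by name, as 40 gene symbols, and 38 of these were rows of the 19589-gene table. Emr1 is the former symbol of Adgre1 and is the same gene, so it was counted once. The levels of Itgam were not analysed here, and it enters only the promoter counts. All 38 rows are accounted for, and 37 of them were above 0 in at least 1 library. The series compared 4 wild-type mice (libraries WT1 to WT4) with 3 mice of the genotype Tet2-/-G17VRHOA (libraries RT1 to RT3), all on the C57BL/6 strain and with no treatment in the labels. The RT mice lack Tet2, an enzyme that starts the removal of methyl groups from DNA cytosines, and carry the G17V form of the small GTPase RHOA, while the wild-type mice carry neither change. The promoter that drives the G17V form, the cells in which Tet2 is lost, and the age of the mice were not stated in the labels used here. Each library is 1 mouse, so a group's spread includes the differences between mice and between library preparations.

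Macrophages take up dead cells and pathogens, and those of the splenic red pulp also break down old red blood cells and recycle their iron. Granulocytes store antimicrobial proteins in granules, conventional dendritic cells present antigen to T cells, and plasmacytoid dendritic cells release type I interferon. These lineages are not helper T cells, but some splenic conventional and plasmacytoid dendritic cells of the mouse also carry CD4 on their surface. Levels of their genes in a CD4+ sort are therefore read here as levels in the sorted sample, not in T cells.

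The values are RPKM, reads per kilobase of gene and per 1000000 reads of the library, and the libraries fell into 2 sets by depth. The labels give no depths or sets, and the totals here were inferred from the steps between the RPKM values. By these totals WT1, WT2 and RT1, the deep set, rested on 18566233 to 21800352 reads, and WT3, WT4, RT2 and RT3, the shallow set, on 105763 to 121659. In a gene of 2 kb, 1 read was worth 0.0229 to 0.0269 RPKM in the deep set and 4.11 to 4.73 RPKM in the shallow set. Low values in the shallow set therefore rest on 1 or 2 reads. The RPKM values of a library summed to 133044 to 152578 in the deep set and to 326187 to 366023 in the shallow set. Of the totals, 49.8% to 54.0% lay in genes in the deep set and 88.7% to 91.8% in the shallow set. RPKM is therefore not on the same scale across the sets, and ranks of single genes over all 7 libraries hold for RPKM as listed. The 11 T cell genes listed as markers summed to 4956 to 6537 reads per 1000000 recovered reads (RPM) in RT1 and the 4 wild-type libraries, and to 11745 and 10356 RPM in RT2 and RT3. Cd4 itself stood at 122 to 463 RPKM in all 7 libraries. WT3 and WT4 stood apart in 3 other marker lists. Their 8 B cell genes summed to 1222 and 1366 RPM against 71.6 to 253 RPM in the other 5 libraries. Their 6 plasma cell genes summed to 1525 and 1735 RPM against 120 to 503 RPM, and their 8 erythroid genes to 1753 and 1726 RPM against 106 to 403 RPM. The natural killer cell list ran from 13.5 to 186 RPM, with the highest sum in RT2. All its reads in RT2 and RT3, 18 and 9, were of Eomes. The stromal list ran from 103 to 266 RPM and was mostly Pecam1, with 2381 of 2519 reads in RT1 and 10 of 10 in RT2. These 2 sums thus describe single genes more than a cell type. The CD8 T cell list reached up to 27.7 RPM and the platelet list up to 19.3 RPM. The part of these cells in the results below was not tested.

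The promoters shown here are examples in which a motif was matched, so they cannot link the motifs to the contrasts below. Csf1r, Mpeg1 and Vcam1, which carry those contrasts, had no match or no window. Those shown are of a complement gene, a lysosomal macrophage gene, an oxidase subunit and a plasmacytoid dendritic cell gene. They are RefSeq windows of GRCm38.p6, each of 300 bases that lie mostly before the annotated start and run into the first transcribed bases, read 5′ to 3′ on the gene's strand. Capitals mark GAGGAA, the core of the site bound by PU.1, the transcription factor of myeloid development, and GGAA followed by any 2 bases and GAAA, the composite site that PU.1 binds with an interferon regulatory factor such as IRF8. Both strands were searched, so a match on the other strand is seen as TTCCTC or as TTTC, any 2 bases and TTCC, and the 2 motifs overlap by shared letters where they adjoin. The C1qb window is chr4:136886151-136886450 on the minus strand, with 1 match on its own strand at bases 221 to 226. The Cd68 window is chr11:69666121-69666420, minus strand, and holds GAGGAA at bases 26 to 31 and, on the other strand, at bases 280 to 285, where it overlaps the composite site at bases 274 to 283. The Cybb window is chrX:9469275-9469574, minus strand, with the composite site at bases 254 to 263 and GAGGAA at bases 260 to 265, both on the other strand. The Siglech window is chr7:55767934-55768233, plus strand, with GAGGAA on the other strand at bases 247 to 252.
C1qb: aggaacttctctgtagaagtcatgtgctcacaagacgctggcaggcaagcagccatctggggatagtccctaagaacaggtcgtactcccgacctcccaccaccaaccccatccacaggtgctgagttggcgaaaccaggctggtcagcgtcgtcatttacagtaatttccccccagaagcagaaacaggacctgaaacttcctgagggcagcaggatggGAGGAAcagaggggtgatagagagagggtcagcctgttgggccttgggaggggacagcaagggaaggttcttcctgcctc
Cd68: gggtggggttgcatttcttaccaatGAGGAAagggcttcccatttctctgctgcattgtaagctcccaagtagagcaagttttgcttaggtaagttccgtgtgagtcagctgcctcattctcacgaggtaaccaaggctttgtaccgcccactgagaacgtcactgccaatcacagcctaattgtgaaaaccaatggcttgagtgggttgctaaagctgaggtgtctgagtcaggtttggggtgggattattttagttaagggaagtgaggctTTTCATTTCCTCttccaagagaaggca
Cybb: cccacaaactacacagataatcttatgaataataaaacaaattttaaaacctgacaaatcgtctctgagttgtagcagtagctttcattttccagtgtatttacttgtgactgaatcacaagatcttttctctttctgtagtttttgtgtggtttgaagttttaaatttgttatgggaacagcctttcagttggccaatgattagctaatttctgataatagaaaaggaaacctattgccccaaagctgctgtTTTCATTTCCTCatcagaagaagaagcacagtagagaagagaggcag
Siglech: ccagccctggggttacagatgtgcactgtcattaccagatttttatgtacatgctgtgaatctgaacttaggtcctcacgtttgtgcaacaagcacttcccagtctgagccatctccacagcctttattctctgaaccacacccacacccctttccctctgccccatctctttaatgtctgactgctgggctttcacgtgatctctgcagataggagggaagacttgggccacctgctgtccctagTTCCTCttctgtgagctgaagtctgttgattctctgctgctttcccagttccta
RefSeq promoters matched 29 of the 40 symbols, with 31 windows. GAGGAA was found in 15 of these 31 windows and in 28.3% of all 32851 promoter windows of the same length. The composite site was found in 3 of the 31 windows, those of Cd209a, Cd68 and Cybb, and in 2.72% of all windows. These are letter matches and show no binding.

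In most members RT1 stood above both deep wild-type libraries, and in 20 members RT2 and RT3 stood below both shallow ones. RT1 was above WT1 and WT2 in 30 of the 37 members above 0, a position that 43.6% of all 13859 genes above 0 took. The second position, RT2 and RT3 both below WT3 and WT4, was taken by 17.3% of all genes. The positions compare values with no tolerance, and in Batf3, counted in both, RT3 and WT4 held 1 read each. Both positions at once were taken by 16 members, against 5.82% of all genes. Of the 36 members above 0 in WT1 or WT2, 25 were at least 2-fold higher in RT1 than the mean of WT1 and WT2, against 16.6% of 12710 genes. The median of this deep ratio was 4.14 over the members and 1.02 over those genes. A single member, Cd14, had every RT library above every wild-type library (3.27% of all genes did), and 3 members, Flt3, Clec10a and Siglech, had every RT library below (3.34% of all genes). Bulk RNA cannot tell fewer cells of a type from less RNA per cell, here or in any result below.

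**Figure D1:**
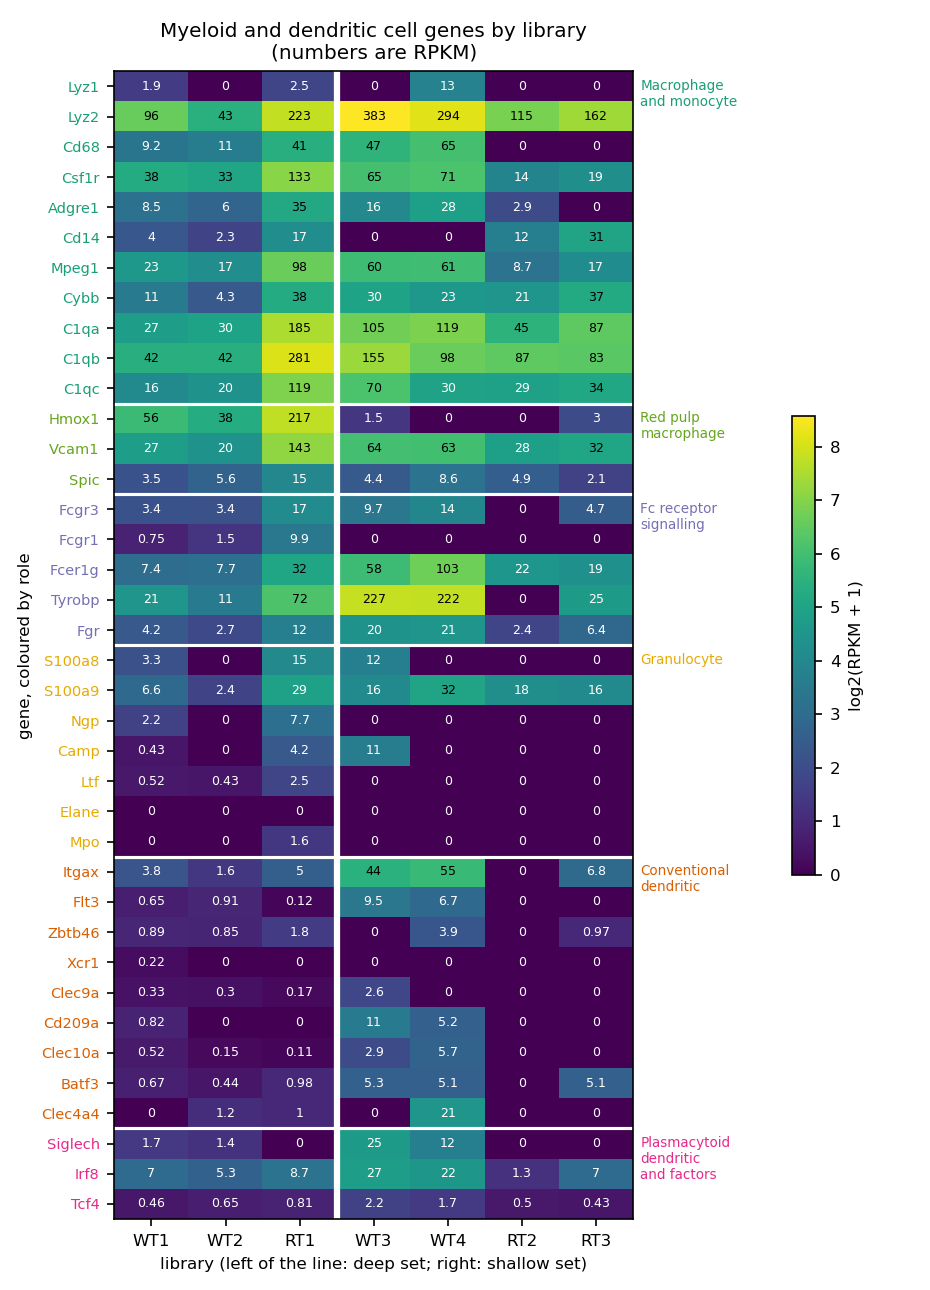
Level of each of the 38 member genes in each library, coloured by log2(RPKM + 1), with the RPKM value printed in each cell; rows are genes grouped by role, columns are libraries, with the deep set left of the white line and the shallow set right of it. In the macrophage rows RT1 is the highest of the 3 deep libraries throughout, and in most of them RT2 and RT3 are below WT3 and WT4, while Siglech is listed at 0 in all 3 RT libraries.

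All 11 macrophage and monocyte genes in the table were higher in RT1 than in WT1 and WT2, by 2.63-fold to 6.75-fold, and 7 of the 11 were lower in RT2 and RT3 than in WT3 and WT4. Lyz2, the lysozyme of macrophages and neutrophils, had the highest mean RPKM of the members, at 96.2, 42.7, 383 and 294 RPKM across WT1 to WT4 and 223, 115 and 162 RPKM across RT1 to RT3. RT1 was above WT1 and WT2, and RT2 and RT3 were below WT3 and WT4. Csf1r, the receptor for the growth factor that macrophages need to survive, stood at 37.8, 32.9, 65.4 and 70.7 RPKM across WT1 to WT4. In RT1 to RT3 it stood at 133, 13.5 and 18.5 RPKM, so that RT1 was above and RT2 and RT3 below every wild-type library. The shallow values rest on 38 and 42 reads in WT3 and WT4 and on 7 and 11 in RT2 and RT3. The ratio of their summed rates, RT over wild type, was 0.231 (95% exact interval 0.130 to 0.388). Such intervals cover counting error only.

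Cd68, a glycoprotein of macrophage lysosomes (chr11:69664213-69666153, mm10), stood at 9.21, 11.4, 46.8 and 65.4 RPKM across WT1 to WT4 and at 41.3 RPKM in RT1, with no read in RT2 or RT3. The shallow wild-type libraries held 17 reads in sum, and the exact interval for the ratio of RT to wild type reached up to 0.248. Adgre1, which encodes the F4/80 antigen of mouse macrophages (chr17:57358691-57483527), stood at 8.50, 5.95, 15.5 and 27.9 RPKM in wild type and at 35.4, 2.91 and 0 RPKM in RT. For both genes RT2 and RT3 were below WT3 and WT4, and for Adgre1 they held 1 and 0 reads against 6 and 11. Mpeg1, the pore-forming perforin-2 of phagocytes (chr19:12460779-12465283), stood at 23.1, 17.4, 60.1 and 60.7 RPKM in wild type and at 97.7, 8.72 and 17.1 RPKM in RT. RT1 was again above all wild-type libraries. RT2 and RT3, on 4 and 9 reads, were below WT3 and WT4, on 31 and 32 reads, and RT3 was close to WT2.

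Cybb, Cd14, Lyz1 and C1qc were the macrophage genes in which RT2 and RT3 were not both below WT3 and WT4. Cybb, the catalytic subunit of the phagocyte NADPH oxidase (chrX:9435252-9487771), stood at 10.9, 4.27, 30.4 and 22.7 RPKM in wild type and at 37.8, 21.2 and 36.8 RPKM in RT. RT2 lay below and RT3 above the shallow wild-type pair, with 39 reads in RT against 37 in wild type and a ratio of 1.08 (95% exact interval 0.671 to 1.74). Cd14, the lipopolysaccharide co-receptor of monocytes and macrophages, is given because its groups did not overlap. It stood at 4.01 and 2.35 RPKM in WT1 and WT2, was at 0 in WT3 and WT4, and stood at 17.3, 12.0 and 31.4 RPKM across RT1 to RT3. Its shallow values rest on 2 reads in RT2 and 6 in RT3. Lyz1, a lysozyme gene beside Lyz2 whose near-identical sequence makes its reads uncertain, was above 0 in WT1, WT4 and RT1 alone, at 1.88 to 13.0 RPKM.

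The 3 chains of complement C1q, the protein that starts the classical complement pathway and is made largely by macrophages, lie side by side on chromosome 4 and had the largest deep ratios of the macrophage group. C1qa (chr4:136895917-136898803) stood at 27.2, 30.3, 105 and 119 RPKM across WT1 to WT4 and at 185, 45.5 and 86.9 RPKM across RT1 to RT3. C1qb (chr4:136880129-136886187) stood at 41.5, 41.8, 155 and 98.2 RPKM in wild type and at 281, 86.9 and 83.1 RPKM in RT. C1qc (chr4:136889804-136893065) stood at 16.1, 20.3, 69.7 and 29.8 RPKM in wild type and at 119, 29.4 and 34.1 RPKM in RT. In all 3 genes RT1 was the highest of the 7 libraries, and the RT2 and RT3 values were below the higher of WT3 and WT4. The deep ratios were 6.43, 6.75 and 6.55 for C1qa, C1qb and C1qc. The shallow ratios were 0.586, 0.652 and 0.624, and each exact interval held 1 (the widest ran from 0.297 to 1.27). The 3 ratios lay close together in each set.

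Genes of red pulp macrophages were likewise highest in RT1. Vcam1, an adhesion molecule of red pulp macrophages and of endothelium (chr3:116109949-116129688), stood at 26.6, 20.3, 64.3 and 62.8 RPKM in wild type and at 143, 27.8 and 32.2 RPKM in RT. RT1 was above every wild-type library, and RT2 and RT3 were below WT3 and WT4, with a shallow ratio of 0.460 (95% exact interval 0.300 to 0.694). Spic, the transcription factor that red pulp macrophages need (chr10:88674772-88685015), stood at 3.48, 5.64, 4.38 and 8.56 RPKM in wild type and at 14.7, 4.92 and 2.14 RPKM in RT. RT1 was the highest library, and the shallow values of 1 to 4 reads a library overlapped. Hmox1, the heme oxygenase that opens the heme ring (chr8:75093621-75100589), stood at 56.2 and 38.5 RPKM in WT1 and WT2 and at 217 RPKM in RT1. In the shallow libraries Hmox1 rested on 0 to 2 reads and on another gene length than in the deep ones, so its shallow values of 0 to 3.03 RPKM are not compared with the deep ones.

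Fc receptor and adaptor genes, which macrophages, neutrophils and dendritic cells share, had RT1 above WT1 and WT2 in all 5 members and RT2 and RT3 below WT3 and WT4 in 4. Tyrobp, the DAP12 adaptor of activating myeloid and natural killer cell receptors (chr7:30413760-30417585), stood at 21.2, 10.9, 227 and 222 RPKM across WT1 to WT4 and at 71.9, 0 and 24.6 RPKM across RT1 to RT3. Its largest gap lay between the shallow wild-type pair, with 36 reads, and RT2 and RT3, with 2. Fcer1g, the common gamma chain of Fc receptors (chr1:171229572-171234365), stood at 7.40, 7.71, 57.7 and 103 RPKM in wild type and at 32.2, 21.6 and 18.8 RPKM in RT. Its RT libraries lay between the 2 wild-type pairs. Fgr, a Src-family kinase of myeloid cells (chr4:132974095-133001910), stood at 4.21, 2.74, 19.6 and 21.3 RPKM in wild type and at 12.1, 2.45 and 6.38 RPKM in RT. Fcgr3, a low-affinity IgG receptor (chr1:171051174-171064935), stood at 3.44, 3.39, 9.69 and 14.2 RPKM in wild type and at 16.9, 0 and 4.73 RPKM in RT. In both genes RT1 was above the deep wild-type pair and RT2 and RT3 were below the shallow pair. Fcgr1, the high-affinity IgG receptor, was at 0 in the shallow set and stood at 0.749, 1.47 and 9.87 RPKM in WT1, WT2 and RT1.

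Granulocyte genes were low in every library but were highest in RT1 among the deep ones. The 7 genes summed to 21.1 and 5.08 RPM in WT1 and WT2, 100 RPM in RT1 and 8.95 to 28.4 RPM in the shallow set. S100a9, a subunit of the neutrophil protein calprotectin (chr3:90692632-90695721), stood at 6.6, 2.39, 16.1 and 31.5 RPKM in wild type and at 29.4, 18.1 and 15.7 RPKM in RT. Its shallow values rest on 1 or 2 reads a library and overlap. S100a8, the other calprotectin subunit, stood at 3.34, 0, 12.1 and 0 RPKM in wild type and at 15.3, 0 and 0 RPKM in RT. RT1 held 232 reads of it, WT1 held 43, and 1 read lay in WT3. Ngp, a protein of neutrophil secondary granules, stood at 2.16 RPKM in WT1 and 7.70 RPKM in RT1 and was listed at 0 elsewhere. Camp, which encodes cathelicidin, stood at 0.426, 0, 11.1 and 0 RPKM in wild type and at 4.24, 0 and 0 RPKM in RT, and its value in WT3 rests on 1 read. Lactoferrin (Ltf) and myeloperoxidase (Mpo) were above 0 in deep libraries alone, where RT1 held 2.46 and 1.59 RPKM, and Elane, neutrophil elastase, was at 0 in all 7. RT1 was above WT1 and WT2 in 6 of the 7 granulocyte genes, and RT2 and RT3 were below WT3 and WT4 in none.

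The 9 conventional dendritic cell genes among the members differed from the macrophage genes in the deep set. Of the 15 further conventional dendritic genes above 0, given below, 13 had RT1 above WT1 and WT2 (43.6% of all genes). RT1 was above both WT1 and WT2 in 3 of the 9 genes and below both in 3, and RT2 and RT3 were below WT3 and WT4 in 5, among them Batf3, with 1 read in each of RT3 and WT4. The median deep ratio was 0.530. The macrophage group had 4.90, the red pulp group 4.59, the Fc receptor group 4.49 and the granulocyte group 7.13. The 0.530 is the ratio of Clec9a, on 12 reads in RT1 against 20 in each of WT1 and WT2. Xcr1 and Cd209a, listed at 0 in RT1 and also in WT2, gave ratios of 0. The members with the most deep reads differed, at 1.85 for Itgax, 2.05 for Zbtb46 and 0.152 for Flt3. The median therefore rests on genes with few reads. Itgax, the CD11c integrin of dendritic cells and some macrophages (chr7:128129547-128150657), stood at 3.81, 1.62, 43.8 and 54.8 RPKM across WT1 to WT4 and at 5.02, 0 and 6.85 RPKM across RT1 to RT3. It was high in WT3 and WT4 and at or under 6.85 RPKM in the other 5 libraries, and its shallow ratio was 0.0719 (95% exact interval 0.0190 to 0.195). Flt3, the cytokine receptor that drives dendritic cell development (chr5:147330741-147400489), stood at 0.654, 0.905, 9.53 and 6.66 RPKM in wild type and at 0.119, 0 and 0 RPKM in RT. Every RT value was below every wild-type value, on 16 reads in RT1 against 75 and 112 in WT1 and WT2. Batf3, a factor that the cross-presenting subset needs, stood at 0.675, 0.438, 5.26 and 5.15 RPKM in wild type and at 0.977, 0 and 5.15 RPKM in RT, with 1 read behind each shallow value above 0.

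Markers of single dendritic cell subsets were near the limit of detection. Clec4a4, a lectin of the CD4+ conventional subset, stood at 0, 1.16, 0 and 21.2 RPKM in wild type and at 1.0, 0 and 0 RPKM in RT, and its value in WT4 rests on 2 reads. Clec10a, a lectin of type 2 dendritic cells and macrophages, is given because its groups did not overlap. It stood at 0.520, 0.155, 2.90 and 5.67 RPKM in wild type and at 0.111, 0 and 0 RPKM in RT, on 7 reads in RT1 and 1 to 28 in the wild-type libraries. Cd209a, a lectin of monocyte-derived and type 2 dendritic cells, was listed at 0 in the 3 RT libraries and stood at 0.817, 0, 10.6 and 5.19 RPKM across WT1 to WT4. Clec9a and Xcr1, both of cross-presenting dendritic cells, reached at most 2.55 and 0.218 RPKM. Zbtb46, a factor of conventional dendritic cells, held more reads, with 140 and 145 in WT1 and WT2 and 331 in RT1. It stood at 0.886, 0.851, 0 and 3.87 RPKM in wild type and at 1.78, 0 and 0.966 RPKM in RT. Its deep ratio of 2.05 was the highest of the conventional dendritic members, and its shallow values rest on 0 to 4 reads. The deep files hold few genes at 1 to 5 reads, so a value of 0 there means listed at 0 and not a count of 0.

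The plasmacytoid group held 3 genes. Siglech, a surface lectin of plasmacytoid dendritic cells (chr7:55768178-55778925), stood at 1.66, 1.37, 24.9 and 12.2 RPKM across WT1 to WT4. It was listed at 0 in RT1, RT2 and RT3. In wild type 104, 93, 10 and 5 reads lie behind these values. In the shallow set, with 15 reads against 0, the exact interval for the ratio of RT to wild type reached up to 0.286. Irf8, a factor of dendritic cell and monocyte development that B cells also express (chr8:120736358-120756694), stood at 7.02, 5.30, 27.4 and 22.1 RPKM in wild type and at 8.66, 1.34 and 6.99 RPKM in RT. RT1 was slightly above WT1 and WT2, and RT2 and RT3 were below WT3 and WT4 with a shallow ratio of 0.171 (95% exact interval 0.0648 to 0.384). Tcf4, the factor that sets plasmacytoid fate and is also found in B cells, stood at 0.461, 0.649, 2.22 and 1.74 RPKM in wild type and at 0.813, 0.50 and 0.435 RPKM in RT. Its shallow values rest on 4 or 5 reads in wild type and 1 in each RT library. WT3 and WT4, the libraries where the dendritic cell genes were highest, are also those with the highest B cell, plasma cell and erythroid sums given above, and the part of those cells in these levels was not tested.

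**Figure D2:**
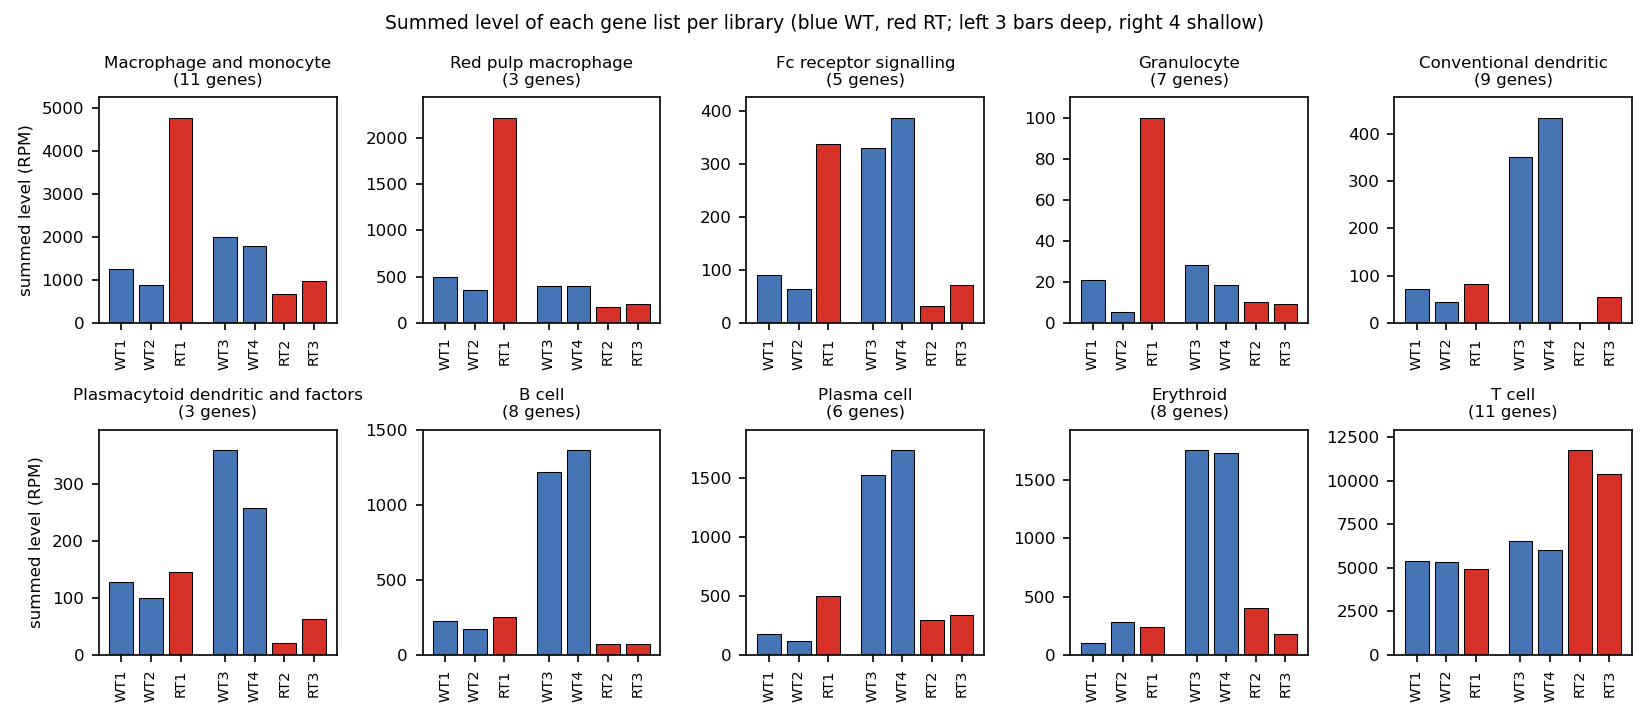
Summed level of each gene list in each library, in reads per 1000000 recovered reads (RPM), for the 6 role groups and 4 lists of other cell types; bars are single libraries, blue for wild type and red for RT, with the 3 deep libraries left and the 4 shallow ones right. RT1 is the highest bar of the macrophage, red pulp and granulocyte groups. WT3 and WT4 are the highest bars of the conventional and plasmacytoid dendritic, B cell, plasma cell and erythroid lists. Irf8 holds 1332 of the 1667 plasmacytoid reads in RT1.

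The sums per group, on the RPM scale, show the same division. The 11 macrophage and monocyte genes summed to 1259 and 871 RPM in WT1 and WT2, 4779 RPM in RT1, 2008 and 1800 RPM in WT3 and WT4 and 661 and 967 RPM in RT2 and RT3. RT1 thus stood above all other libraries, and WT3 and WT4 above the deep wild-type pair. The red pulp sums were 497, 356, 398 and 397 RPM in WT1 to WT4 and 2220, 175 and 206 RPM in RT1 to RT3. The conventional dendritic sums were 71.9, 43.8, 351 and 434 RPM in wild type and 82.3, 0 and 53.7 RPM in RT. In the conventional dendritic sum RT1 was near the deep wild-type pair, and WT3 and WT4 were the only libraries above 82.3 RPM. Itgax held most of this sum, with 526 of 943 reads in RT1, 25 of 37 in WT3 and 32 of 47 in WT4. Single genes of the list went either way in RT1. Over all 38 genes the mean of RT over the mean of wild type was 4.37 in the deep set and 0.33 in the shallow set. The B cell list gave 1.27 and 0.06 by the same measure, and the T cell list 0.93 and 1.76.

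The series set RT splenocytes against wild-type ones, and this contrast was tested with limma on log2(RPKM + 1) over 9605 genes, with terms for genotype and for library set. Of the 25 members tested, 0 were called higher and 0 lower at an adjusted p under 0.05, where 0.219% of all genes were called higher and 0.0521% were called lower. Before adjustment 2 members, Cd14 and Siglech, had a p under 0.05. Cd14 had a log2 fold change of 3.48 ± 0.61 (SE) with a limma adjusted p of 0.0867, and Siglech one of -3.05 ± 0.67 with an adjusted p of 0.127. The median over the 25 members was -0.44 and over all genes -0.03. The 13 members not tested were under 1 RPKM in 5 or more libraries, so this median does not describe the whole list.

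Another fit gave other counts, and it differed in the values, the genes tested and the weights together. Whole reads were recovered from the RPKM steps and fitted with limma voom, which weighs the deep libraries more, over the 5893 genes with 10 or more reads in the shallow set. In that fit 11 of the 18 members tested were higher in RT and 2 were lower, against 9.62% and 7.92% of all genes. The 11 were Adgre1, C1qa, C1qb, C1qc, Cd68, Csf1r, Cybb, Fcer1g, Fgr, Mpeg1 and Vcam1, with log2 fold changes from 1.51 for Csf1r to 2.53 for C1qc. C1qc rose by 2.53 ± 0.30 (SE) on the log2 scale with a limma voom adjusted p of 0.00146. Siglech fell by 5.52 ± 1.04 with a voom adjusted p of 0.00987. RT1, listed at 0 for Siglech, entered this fit as a count of 0, so the size of its fall is uncertain. Flt3 fell by 2.90 ± 0.51 with a voom adjusted p of 0.00761. The 5 members tested but not called were Lyz2, Tyrobp, Itgax, Irf8 and Tcf4, with estimates of 1.18, 1.91, 0.61, 0.30 and 0.45.

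All 13 of these calls were lost without RT1. The voom fit then called 0 members and 0 genes of any kind at an adjusted p under 0.05, with 9 members at an unadjusted p under 0.05. For Siglech and Flt3 the log2 fold changes without RT1 were -3.88 ± 1.08 and -3.64 ± 1.03 (SE), with voom adjusted p-values of 0.33 and 0.332. Of the 11 genes called higher, all but Cybb, at 0.08, had an estimate below 0 without RT1. Without RT1 the fit on log2(RPKM + 1) called 1 member higher, Cd14, against 1.75% of all genes. The same fit called 5 members lower, Cd68, Csf1r, Fcer1g, Mpeg1 and Siglech, against 2.89% of all genes. The shallow libraries alone, fitted with voom, gave 0 members higher and 6 lower, namely Csf1r, Irf8, Itgax, Lyz2, Mpeg1 and Vcam1, against 3.21% and 4.45% of all genes. Csf1r had a log2 fold change of -2.07 ± 0.42 (SE) there with a voom adjusted p of 0.000251, opposite in sign to its 1.51 ± 0.43 over all libraries. In the deep libraries alone voom called no member and no gene, with 21 members at an unadjusted p under 0.05, and the lone RT1 was there assumed to vary like WT1 and WT2.

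**Figure D3:**
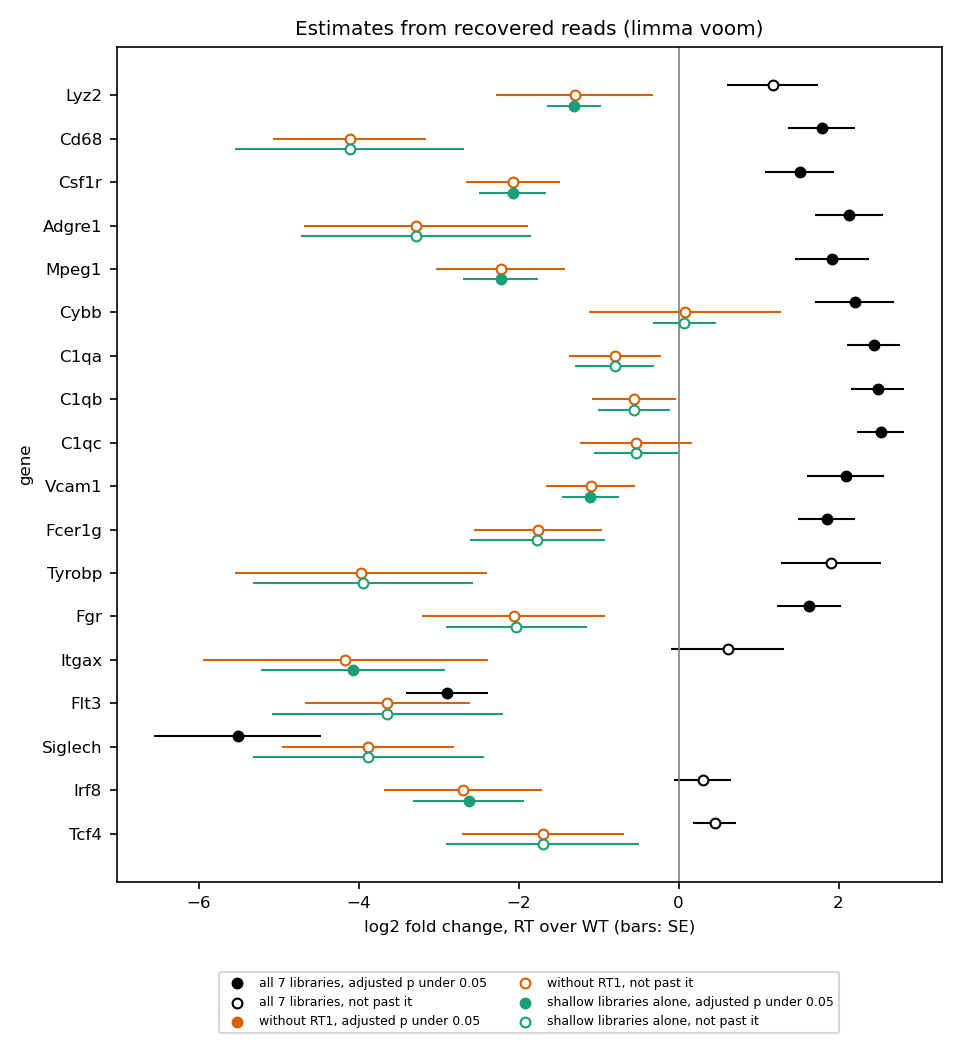
Log2 fold change of RT over wild type for the 18 members tested on recovered reads, from limma voom over all 7 libraries (black), without RT1 (orange) and in the shallow libraries alone (green); points are estimates, bars their SE, and filled points have an adjusted p under 0.05. The macrophage and Fc receptor genes lie right of 0 over all libraries and, apart from Cybb, left of 0 without RT1, while Flt3 and Siglech lie left of 0 in all 3 fits.

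The difference between the sets was tested as an interaction of genotype with library set, a test added after this pattern had been seen. RT1 alone stands for RT in the deep set, so the spread in this test comes from the other 3 groups of libraries. Of 25 members, 21 had an estimate above 0 in the deep set and below 0 in the shallow set, which 25.3% of 9342 genes also had. The median difference was 2.01 in the deep set and -1.89 in the shallow set on the log2(RPKM + 1) scale. In the interaction 5 members were lower in the shallow set at an adjusted p under 0.05 and 0 were higher, against 0.812% and 0.0104% of all genes. They were Cd68, Csf1r, Mpeg1, C1qb and Vcam1. On recovered reads 6 of 18 members were lower and 0 higher, the same 5 and C1qa, against 1.15% and 0.0509% of all genes. Cd68 had the largest of these, -6.10 ± 0.78 (SE) on the log2 scale with a voom adjusted p of 0.0152.

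The interaction rests on RT1 as the only deep RT library and on few libraries elsewhere. Leaving out WT1, WT2, WT3, WT4 or RT2 left 0 members past the threshold in the fit on log2(RPKM + 1), with 13 to 19 at an unadjusted p under 0.05. Leaving out RT3 left 5, Cd68, Csf1r, Mpeg1, C1qa and Tyrobp. With all 37 members in a wider voom fit the interaction called 0, and 17 had an unadjusted p under 0.05. For Flt3 the interaction was -0.96 ± 0.97 (SE) with a voom adjusted p of 0.841, and the differences were below 0 in both sets. The libraries that set the shallow contrast also differ in other markers, since RT2 and RT3 had the highest T cell sums and WT3 and WT4 the highest B cell, plasma cell and erythroid sums. Genotype and these differences cannot be told apart within the shallow set.

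**Figure D4:**
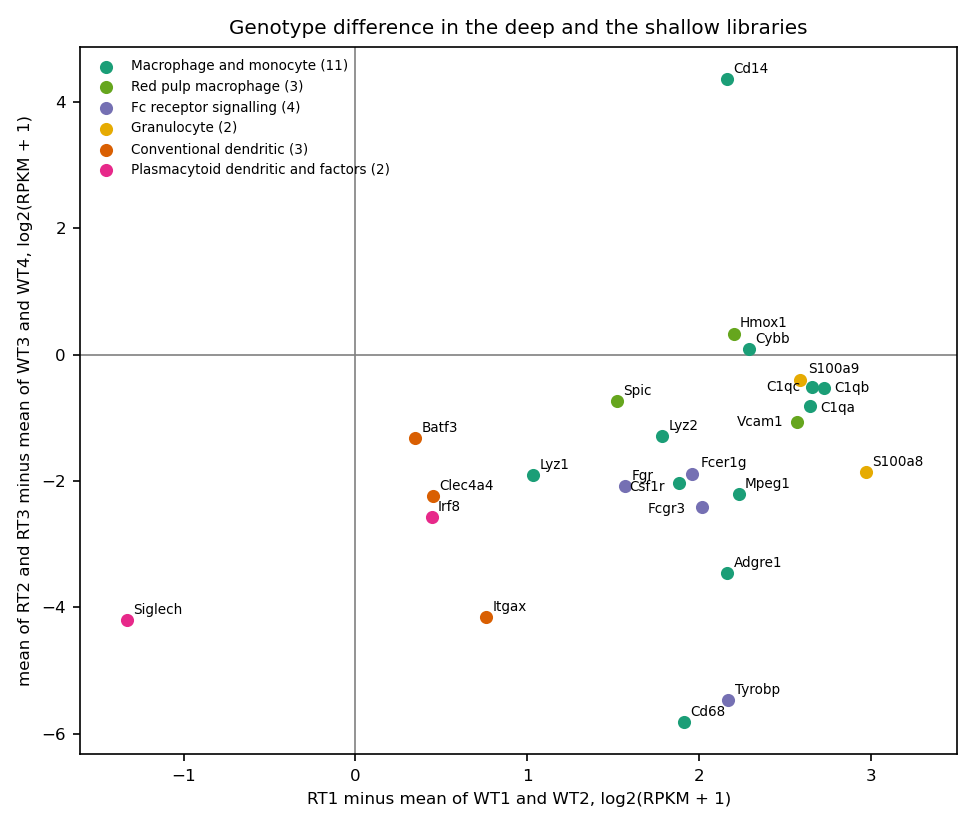
Genotype difference of the 25 members tested on log2(RPKM + 1), in the deep libraries (x axis, RT1 minus the mean of WT1 and WT2) and in the shallow libraries (y axis, mean of RT2 and RT3 minus mean of WT3 and WT4); points are genes coloured by role. In the lower right lie 21 genes, Cd14, Cybb and Hmox1 lie in the upper right and Siglech in the lower left.

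Further genes of the same lineages, 73 in 4 lists, held 66 that were above 0. Of these, 55 had RT1 above WT1 and WT2 (43.6% of all genes) and 25 had RT2 and RT3 below WT3 and WT4 (17.3% of all genes). In the fit on log2(RPKM + 1), 1 of them, Il1r2, was called. Il1r2, the decoy receptor for interleukin 1 found on neutrophils and also on activated regulatory T cells, stood at 3.53, 1.73, 8.81 and 8.62 RPKM in wild type and at 29.7, 297 and 202 RPKM in RT. Every RT library was above every wild-type library, as in 5 of the 66 genes and in 3.27% of all genes. The rise of Il1r2 was 4.05 ± 0.39 (SE) on the log2 scale with a limma adjusted p of 0.0351. Of the 16 genes in its list, 3 others were tested in this fit and did not pass, and on recovered reads Il1r2 alone had enough reads to be tested.

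Of the 26 other macrophage genes, 11 could be tested on recovered reads, and 9 were higher in RT and 0 lower, against 9.62% and 7.92% of all genes in that fit. Cd5l, a secreted protein of tissue macrophages, stood at 17.2, 18.7, 20.6 and 40.4 RPKM in wild type and at 168, 9.29 and 44.4 RPKM in RT, high in RT1 alone. Axl, a receptor tyrosine kinase for apoptotic cell uptake, stood at 19.9, 16.7, 31.7 and 27.8 RPKM in wild type and at 82.7, 62.0 and 58.8 RPKM in RT. Cebpa, a transcription factor of myeloid progenitors, stood at 10.4, 4.70, 9.57 and 15.6 RPKM in wild type and at 53.9, 78.9 and 34.3 RPKM in RT. Axl and Cebpa were above every wild-type library in all 3 RT libraries, unlike 10 of the 11 macrophage members. With Cx3cr1 and Ctsb, 4 of the 25 genes of this list above 0 took this position, against 3.27% of all genes. The rises of Axl and Cebpa were 2.03 ± 0.20 and 2.88 ± 0.38 (SE) on the log2 scale, with voom adjusted p-values of 0.000736 and 0.00235.

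Of the 16 other conventional dendritic genes 8 were tested on recovered reads, with 4 higher and 1 lower. The same 9.62% and 7.92% of all genes were called, so that the share lower is near that of all genes. RT1 was above WT1 and WT2 in 13 of the 15 above 0 (43.6% of all genes), against 3 of 9 conventional dendritic members. Tmem176b, an ion channel protein of dendritic cells and of some helper T cells, stood at 4.68, 3.16, 24.8 and 20.8 RPKM in wild type and at 9.79, 55.8 and 34.7 RPKM in RT, above the wild-type pair within each set. Tmem176a and Relb, an NF-kB subunit that lymphocytes also express, had voom log2 fold changes of 2.43 and 0.74, with adjusted p-values of 0.0122 and 0.0405. In both genes RT1 was above WT1 and WT2. The shallow libraries overlapped for Tmem176a, at 13.2 and 10.8 RPKM in WT3 and WT4 and 9.93 and 12.9 RPKM in RT2 and RT3. For Relb they lay the other way, at 32.5 and 29.6 RPKM in WT3 and WT4 and 29.2 and 21.2 RPKM in RT2 and RT3. Dpp4, the peptidase CD26 that T cells also carry, stood at 6.01, 5.52, 13.3 and 15.6 RPKM in wild type and at 2.40, 4.49 and 14.3 RPKM in RT. Its voom log2 fold change was -1.24 ± 0.20 (SE) with an adjusted p of 0.00488, and RT3 lay between WT3 and WT4.

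Of the 15 other plasmacytoid genes 8 were tested on recovered reads, with 2 higher and 1 lower, where 9.62% and 7.92% of all genes were called, so that the share lower is near that of all genes. Ly6c2, a surface antigen of plasmacytoid cells, monocytes and memory T cells, stood at 2.26, 3.19, 33.8 and 21 RPKM in wild type and at 0.485, 0 and 0 RPKM in RT. Every RT value was below every wild-type value in Ly6c2 and Ccr9, 2 of the 66 further genes above 0, against 3.34% of all genes. Ly6c2 fell by 2.74 ± 0.49 (SE) on the log2 scale with a voom adjusted p of 0.00761. Lair1, an inhibitory collagen receptor, and Tlr9, the endosomal receptor for CpG DNA, had voom log2 fold changes of 1.38 and 1.91, with adjusted p-values of 0.0242 and 0.0345. In both genes RT1 was above WT1 and WT2, and RT2 and RT3 were below WT3 and WT4, as in 7 of the 11 macrophage members. In the voom fit that left out RT1 alone, no gene of these lists was called. Voom on the shallow libraries alone gave 1 higher and 2 lower among other macrophage genes, and 1 and 0 among other granulocyte genes. It gave 1 and 2 among other conventional dendritic genes and 0 and 1 among other plasmacytoid genes, against 3.21% and 4.45% of all genes.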

How the data were processed

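CD4+ splenocytes were sorted by flow cytometry and 150 ng of RNA went into each TruSeq v2 library, per the labels' protocols. The authors deposited RPKM values for 19589 genes in 7 libraries. The submitters' processing notes list the build mm10. The aligner, counter and gene models behind the table were not given in the sources used here. Gene positions come from GENCODE M21 of that build.

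RT and wild type were compared with limma 3.58.1 (R 4.3.3, trended prior) on log2(RPKM + 1), with genotype and library set as terms, over genes reaching 1 RPKM in at least 3 libraries. P-values are two-sided with Benjamini-Hochberg adjustment over all genes tested, at a threshold of 0.05. The spread they rest on is that between libraries. It includes differences between mice and library preparations and, in the shallow set, the counting error of few reads. Fold changes on that scale understate low genes. Reads were recovered from the RPKM steps. With exon lengths, 78.9% to 83.9% of values under 100 reads came out whole within 0.01 reads. Where no annotated length gave whole reads, a length that did was used. This was a single length for 2479 genes and separate lengths in the deep and shallow sets for 843. Csf1r, Adgre1, Mpeg1, Vcam1, Cd14 and Tcf4 are among the 2479, so their read counts rest on a fitted length. The recovered reads of all genes, scaled to their own sum (RPM), were fitted with limma voom. Shallow ratios carry exact conditional 95% intervals. Scripts were tested on simulated data.

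The members and lists were chosen with earlier results of these data known. Levels in every library are given for members called in either fit and for the highest up to 4 members of each role, and for up to 3 called genes of each further list and direction. Replicate numbers were not treated as a pairing. Alternatives covered the pseudocount, the filter, the scaling, the library set term and leaving out each library.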

Additional observations from a re-analysis of the deposited data

Results flagged for a closer look

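The genotype difference differed between the shallow and the deep libraries for 5 members in a test of the difference itself on log2(RPKM + 1), given here as shallow minus deep. It was -7.73 for Cd68, -4.44 for Mpeg1, -3.92 for Csf1r, -3.63 for Vcam1 and -3.26 for C1qb. On recovered reads it was -6.10 for Cd68, -4.52 for Mpeg1, -3.97 for Csf1r, -3.71 for Vcam1, -3.48 for C1qa and -3.29 for C1qb. All of these rest on RT1 as the only deep RT library, the spread comes from the other libraries, and the test was added after this pattern had been seen.

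In 6 of 38 members 1 wild-type library lay far from the other 3, by Dixon's ratio. The usual chance rate of about 1 in 20 does not hold here, because the others were mostly at 0 or near it and 1 read is worth far more in the shallow libraries. The levels were 13.0 RPKM for Lyz1 in WT4, 21.2 RPKM for Clec4a4 in WT4, 11.1 RPKM for Camp in WT3 and 2.55 RPKM for Clec9a in WT3, each on 1 or 2 reads. The other 2 were 2.16 RPKM for Ngp and 0.218 RPKM for Xcr1, both in WT1, with the other wild-type libraries at 0.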

How the results depend on the processing

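Depth limited the shallow libraries, where 1 read was worth 8.95 to 10.3 RPM and a count of 0 allowed up to 26.9 to 31.0 RPM. In the fit on log2(RPKM + 1), 0 members were called in either direction with the library set term dropped, with a pseudocount of 0.1 or 5, with no filter or one of 5 RPKM, and after rescaling each library to a sum of 1000000. The shallow libraries alone gave 1 member lower (Cd68). The counts over all genes, 21 higher and 5 lower, became 4 and 1 with no library set term, 4 and 0 with a pseudocount of 0.1, and 0 and 0 with no filter (1328 genes at an unadjusted p under 0.05). They became 3 and 2 after rescaling, 2 and 0 in the deep libraries alone and 11 and 75 in the shallow ones, and the lower count was 9 with a filter of 5 RPKM.

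Voom on recovered reads gave 567 higher and 467 lower genes, with 11 and 2 members, and with a filter that kept 37 members 799 and 464 genes, with 14 and 2 members. By voom the deep libraries alone gave 0 and 0 genes and members (1702 genes at an unadjusted p under 0.05), and the shallow ones 189 and 262 genes, with 0 and 6 members. The members' median of -0.44 was 1.82 with voom, 1.68 with voom and the wider filter, 2.01 with deep libraries alone and -1.89 with shallow ones alone. With voom, estimates that were below 0 on log2(RPKM + 1) were called above 0 for Cd68 (1.79), Csf1r (1.51), Adgre1 (2.13), Mpeg1 (1.92), Fcer1g (1.85) and Fgr (1.63). With the wider filter this held for Csf1r (1.68), Mpeg1 (1.99) and Fcgr3 (2.02). The voom fits changed the values, the filter and the weights together, and the cause was not tested.

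Leaving out each library in turn gave 0 to 168 genes higher and 0 to 278 lower on log2(RPKM + 1), with 0 to 1 and 0 to 5 members and a median from -1.89 to 0.17. On recovered reads it gave 0 to 750 and 0 to 645 genes, with 0 to 12 and 0 to 2 members. Among these voom fits with a single library left out, only the fit without RT1 called no gene. The members with a lower difference in the shallow set numbered 0 to 5 when a library was left out and 0 with voom and the wider filter. The replicate block gave 0 genes higher and 0 lower, with 458 at an unadjusted p under 0.05. Deviations of same-numbered libraries from their genotype means correlated at 0.43, -0.18 and 0.18. Library set was not removed from these deviations, so they cannot show whether the numbers pair the libraries. The numbers were not treated as a pairing.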
